A study of Mus musculus with 48 samples.

Results

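The major urinary protein (Mup) genes of the mouse were followed in liver 9 days after bariatric surgery. Every row of the deposited tables whose symbol is Mup followed by digits was taken, which gave 18 genes of the 15541 distinct genes listed over 6 tissue tables. All 18 stood in the liver table, and the tables of white adipose tissue (WAT), muscle, duodenum, jejunum and ileum listed 0 of them. Values are CPM, a gene's reads scaled to a common library total. Each table lists the genes that reached 1 CPM in enough libraries to fill the smaller group of that tissue, so a gene that is not listed was low there, and its exact level is unknown. The liver libraries came from male C57Bl6 mice made obese by diet, 4 after Roux en Y Gastric Bypass (RYGB), in which food bypasses most of the stomach and the duodenum, and 4 after a sham operation. All had been fed a high-fat diet. Mice of both groups then took an elemental liquid diet, to which the labels add a later return to the high-fat diet, and they were killed at 10 in the morning after a night without food. The series holds 48 libraries over the 6 tissues, made with a stranded kit for polyadenylated RNA. Libraries are called mice 1 to 4 after the numbers in their labels. The labels do not state the body weight or food intake of the groups, so surgery and what it does to feeding cannot be told apart.

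Major urinary proteins are small secreted lipocalins, barrel-shaped carriers of hydrophobic molecules. The adult male mouse liver makes them in large amounts, and they pass through the blood into the urine, where they bind and slowly release volatile pheromones and are themselves read as scent signals. Their genes form a tandem family of closely related copies, and their transcription in hepatocytes is known to depend on pulsatile growth hormone, with further input from thyroid hormone, glucocorticoids and nutrition. Mup20, also called darcin, is the member best known as a male pheromone in its own right.

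The 18 genes lie in GRCm38 on chromosome 4 between bases 59956804 and 62150863, a span of 2.19 Mb by GENCODE M21, with 17 on the minus strand and Mup6 on the plus strand. The annotation places 26 Mup pseudogenes on this chromosome and 22 coding Mup genes in all; Mup8, Mup15, Mup19 and Mup22 were not analysed here. The copies are so alike that the sequence decides how well each can be measured. Over 153 pairs of coding sequences the identity of aligned bases ran from 81.5% to 99.8%. Mup11 and Mup18 differed at 1 aligned coding base, and Mup2 and Mup9 at 2. A stretch of 90 coding bases shows the pattern for the members on which the results turn. It was picked as the ungapped stretch of that length with the most variable positions among the genes shown, so it is not typical of the whole coding sequence. It begins at coding base 171 of Mup7, and capitals mark the bases that differ from Mup7.

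Mup7: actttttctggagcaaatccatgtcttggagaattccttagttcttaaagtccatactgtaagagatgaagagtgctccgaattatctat
Mup17: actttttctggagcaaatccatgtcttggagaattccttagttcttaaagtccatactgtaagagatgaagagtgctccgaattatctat
Mup11: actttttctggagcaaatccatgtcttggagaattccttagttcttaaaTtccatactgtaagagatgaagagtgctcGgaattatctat
Mup10: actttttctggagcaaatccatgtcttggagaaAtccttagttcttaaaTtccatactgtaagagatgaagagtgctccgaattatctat
Mup20: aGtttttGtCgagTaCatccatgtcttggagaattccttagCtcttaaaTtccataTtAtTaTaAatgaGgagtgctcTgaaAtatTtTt
Mup3: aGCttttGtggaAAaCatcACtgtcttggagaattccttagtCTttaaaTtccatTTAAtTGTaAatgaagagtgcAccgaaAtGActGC
Mup21: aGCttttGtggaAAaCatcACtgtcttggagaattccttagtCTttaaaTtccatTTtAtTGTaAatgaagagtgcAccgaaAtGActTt

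Mup17 matched Mup7 at every base of this stretch, Mup11 and Mup10 each differed from it at 2 bases, and Mup20, Mup21 and Mup3 differed at 17, 23 and 25. Over the whole coding sequence Mup17, Mup20 and Mup3 differed from Mup7 at 7, 51 and 91 of 540 aligned bases. Sequencing reads from the first 4 of these genes can therefore fit more than 1 gene, whereas Mup20, Mup3 and Mup21 are easier to tell apart from those 4. In whole transcripts, the share of windows of 50 bases found in no other annotated gene was 95.7% for Mup6, 87.6% for Mup4, 84.4% for Mup3, 82.9% for Mup5 and 80.7% for Mup21. It was 49.5% for Mup20. In the other 12 genes it ran from 0% in Mup2 to 21.9% in Mup17, and among these 12 every pair of coding sequences was at least 95.6% identical. How the deposited counts treated reads that fit several genes is not given in the sources used here, so the split of the signal among these 12 is uncertain, and the summed signal of the family is the safer quantity.

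The summed Mup signal was lower in each RYGB liver than in each sham liver. It was 20880, 17360, 10475 and 17281 CPM in sham mice 1 to 4 and 2935, 975.3, 4085 and 3297 CPM in RYGB mice 1 to 4. The means were 16499 ± 4353 CPM (SD, n = 4) in sham and 2823 ± 1322 CPM (SD, n = 4) in RYGB, a ratio of 5.84. In other terms the family took 1.05% to 2.09% of a sham library and 0.0975% to 0.408% of an RYGB library. RYGB mouse 2 held the lowest sum, and without it the ratio was 4.80. In tissue RNA in general, fewer cells of a type and less RNA per cell cannot be told apart. The 8 hepatocyte markers summed to 89215 to 107664 CPM in sham and 95124 to 130263 CPM in RYGB. Most of this sum was Alb, with means of 71463 CPM in sham and 84762 CPM in RYGB. The log2 differences of the 8 ran from -0.42 to 0.55 with a median of 0.14, and 0 of them were called lower (0 also at an unadjusted p below 0.05 in limma). The Mup genes were chosen by their symbol after several of them had been selected on this same liver contrast (RYGB against sham), so their differences are given as a description, with no p-value.

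All 18 genes passed the minimum (mean CPM of 1 or more) and entered the fit of log2(CPM + 1) over 11807 liver genes. In 17 of 18 the 4 RYGB values lay below the 4 sham values, against 3.05% of all genes fitted. Mup2 was the exception. Called genes, with an adjusted p-value below 0.05 in limma and a change of at least 1.5-fold, included 16 of the 18 as lower, where 1.29% of all genes were called lower. As the calls come from the contrast on which members had been selected, nothing is read from this count. Mup20 and Mup2 were not called. The median difference of RYGB minus sham over the 18 was -2.88 on the log2 scale, and the median over all genes was 0.13, so that values here stand against a small general upward shift. In 7 genes every library reached 1 CPM, and 6 of these 7 were called lower. In the other 11 at least 1 RYGB library was below 1 CPM, so that sham values helped these genes into the table. Among them Mup4 and Mup13 reached 1 CPM in no RYGB library, so their direction was fixed by the listing, and without both the count was 14 of 16.

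**Figure D1:**
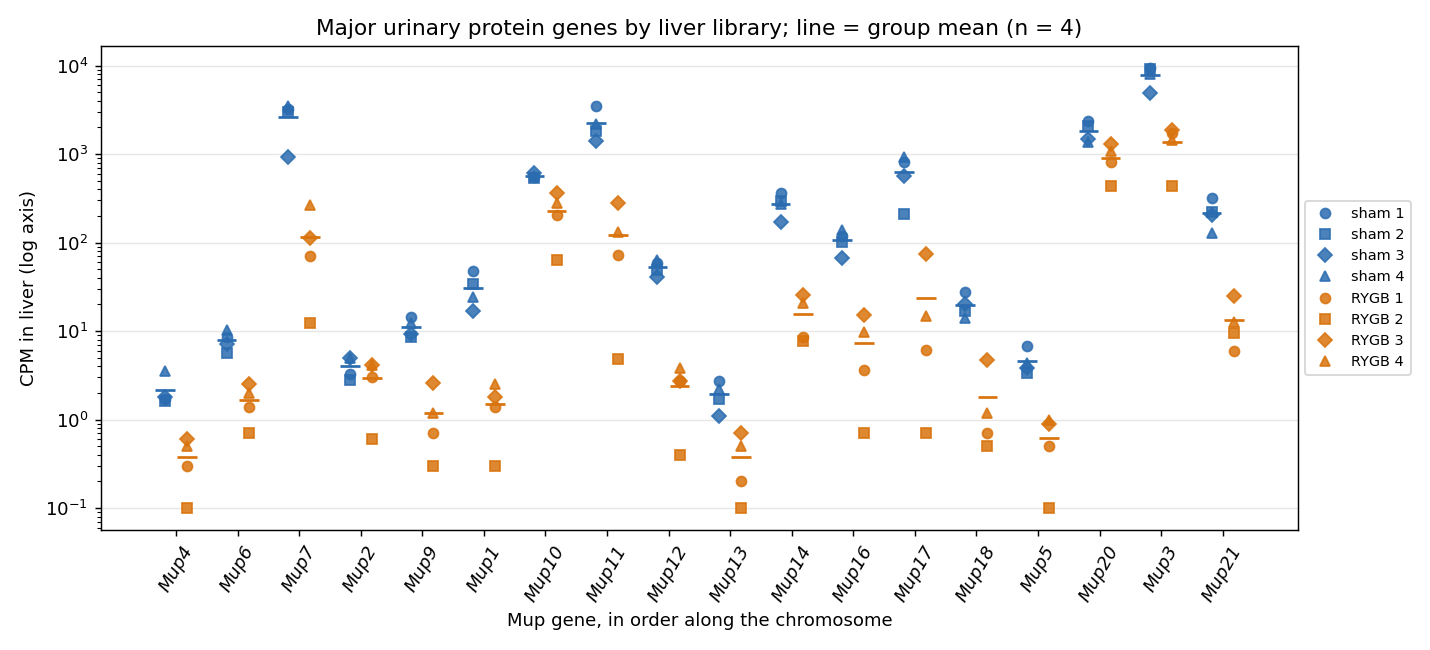
CPM of each Mup gene in each liver library on a log axis, with genes in order along chromosome 4; blue symbols are the 4 sham mice, orange symbols the 4 RYGB mice, and lines the group means. RYGB mouse 2 (orange squares) was the lowest RYGB library for 17 of 18 genes, and the groups overlap for Mup2.

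Mup3 was the most abundant member in both groups. It stood at 9422, 9049, 4925 and 8079 CPM in sham mice 1 to 4 and at 1740, 440.3, 1879 and 1454 CPM in RYGB mice 1 to 4. The lowest sham value was thus above the highest RYGB value. The means were 7869 ± 2043 CPM and 1378 ± 650 CPM (SD, n = 4 each), a ratio of 5.71, and the difference on the log2(CPM + 1) scale was -2.66 ± 0.42 (SE). Most of the transcript of Mup3 is shared with no other gene, and this gene made up 47.7% of the summed Mup signal in sham and 48.8% in RYGB.

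Mup7 and Mup11, next by mean CPM in sham, belong to the group of near-identical copies. Mup7 was at 3234, 2956, 935.9 and 3466 CPM in sham and at 69.7, 12.4, 113.1 and 269 CPM in RYGB. The groups lay far apart, although sham mouse 3 was well below the other sham mice. Its difference was -5.01 ± 0.76 (SE) on the log2 scale, with a ratio of means of 22.8. Mup11 was at 3509, 1807, 1398 and 2180 CPM in sham and at 72.6, 4.8, 278.9 and 132.6 CPM in RYGB. RYGB mouse 2 had almost no Mup11 signal, and the difference was -5.05 ± 0.93 (SE), with a ratio of 18.2.

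Of the 18 genes Mup17 had the largest difference. It was at 808.9, 212.1, 570.9 and 930 CPM in sham and at 6.1, 0.7, 73.6 and 14.7 CPM in RYGB. The RYGB mice differed widely among themselves, with a coefficient of variation of 142%, yet the highest of them stayed below the lowest sham mouse. The ratio of means was 26.5 and the difference -5.66 ± 0.92 (SE) on the log2 scale, the second lowest of 11807 genes fitted.

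Mup20, the darcin gene, had the smallest difference of the members with a sham mean above 110 CPM. It was at 2383, 2060, 1483 and 1385 CPM in sham and at 815.2, 432, 1290 and 1087 CPM in RYGB. The groups met closely, with 1290 CPM in the highest RYGB mouse and 1385 CPM in the lowest sham mouse. The means were 1828 ± 475 CPM and 905.9 ± 370.9 CPM (SD, n = 4 each), a ratio of 2.02, and the difference was -1.09 ± 0.31 (SE) on the log2 scale, which was not called. Its part of the summed signal was larger in RYGB. It made up 8.02% to 14.2% of the summed Mup signal in the sham libraries and 27.8% to 44.3% in the RYGB libraries.

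Mup10 resembles Mup7 and Mup17 in sequence but not in its values. It was at 552.8, 533.6, 612 and 563.9 CPM in sham, the narrowest spread of any member in sham (coefficient of variation 5.90%), and at 202.5, 64.1, 365.1 and 279.9 CPM in RYGB. The groups did not overlap, but the ratio of means was 2.48 and the difference -1.56 ± 0.42 (SE). The coding sequence of Mup10 was 98.9% identical to that of Mup17, and 13.8% of its 50-base windows were its own. The part of shared reads in the difference between Mup10 and Mup17 was not tested.

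Mup21 and Mup14 had lower levels and differences near -4. Mup21, whose nearest relative by coding sequence is Mup3, at 95.4% identity, was at 315.8, 221.2, 205.5 and 127.2 CPM in sham and at 5.9, 9.5, 24.9 and 12.7 CPM in RYGB. Its difference of -4.04 ± 0.37 (SE), with a ratio of 16.4, was larger than that of Mup3, and more than 80% of the transcript windows of either gene are its own. Mup21 was also the 1 member whose lowest RYGB value was not in mouse 2 but in mouse 1. Mup14 was at 362.7, 294.3, 171.8 and 272.5 CPM in sham and at 8.6, 7.7, 25.5 and 20.8 CPM in RYGB, a difference of -4.17 ± 0.36 (SE), but 2.40% of its windows are its own.

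The remaining members had sham means below 110 CPM. Mup16 and Mup12 had means of 106.5 ± 30.3 and 52.8 ± 10.2 CPM in sham against 7.33 ± 6.48 and 2.40 ± 1.43 CPM in RYGB (SD, n = 4 each). Mup1 had means of 30.8 ± 13.2 and 1.5 ± 0.92 CPM, Mup18 of 19.8 ± 5.99 and 1.78 ± 1.97 CPM, and Mup9 of 11.2 ± 2.73 and 1.20 ± 1.00 CPM. These 5 genes are all near-identical copies, with differences between -4.10 and -2.54 on the log2 scale. Mup6, Mup5 and Mup4, which are mostly unique in sequence, had sham means of 7.88, 4.60 and 2.15 CPM and RYGB means of 1.65, 0.625 and 0.375 CPM, with ratios of 4.77, 7.36 and 5.73. Mup13 had means of 1.93 and 0.375 CPM. The values of these last 4 genes approach the rounding step of 0.1 CPM in RYGB, so that their ratios are coarse.

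Mup2 alone overlapped between the groups. It was at 3.3, 2.8, 4.9 and 5 CPM in sham and at 3, 0.6, 4.1 and 4.1 CPM in RYGB. Apart from RYGB mouse 2 the values of both groups fell in the same range, and the difference was -0.45 ± 0.34 (SE). Without RYGB mouse 2 it was -0.06. None of the 50-base windows of Mup2 is its own, so the level of this gene in particular rests on how shared reads were assigned.

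**Figure D2:**
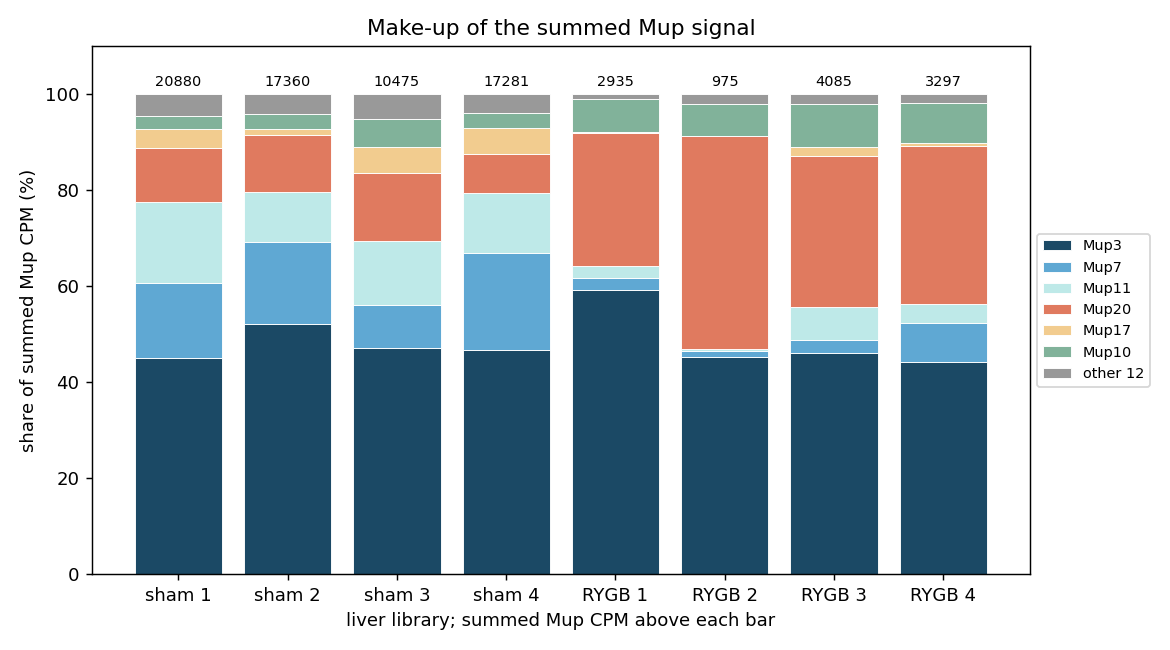
Share of the summed Mup CPM held by 6 members and by the other 12 together in each liver library, with the summed CPM written above each bar. Mup3 held 44.1% to 59.3% in every library, while the band of Mup20 was wider in the RYGB mice (27.8% to 44.3%) than in the sham mice (8.02% to 14.2%).

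Levels were compared between genes as CPM per kilobase of transcript. In sham Mup3 led with 7997 ± 2076 (SD, n = 4), followed by Mup7 with 2857 ± 1252, Mup11 with 2391 ± 983 and Mup20 with 1970 ± 512. Mup3 was above the rest in every sham mouse, whereas the ranges of Mup7, Mup11 and Mup20 overlapped. Below them came Mup17 with 680 ± 341 and Mup10 with 610 ± 36.0, which overlapped, and then Mup21 with 321 ± 114 and Mup14 with 298 ± 85.4, which also overlapped. Of the 17 pairs of neighbours in this order 12 overlapped in sham. In RYGB Mup3 (1401 ± 660) and Mup20 (976 ± 400) were the 2 highest and overlapped, and both were above Mup10 (246 ± 138), Mup11 (131 ± 126) and Mup7 (125 ± 119). There 16 of 17 neighbouring pairs overlapped. For the genes with few windows of their own this order carries the same uncertainty as their CPM.

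The size of the difference varied within both sequence classes. Among the 12 near-identical copies the ratio of sham to RYGB means ran from 1.36 to 26.5 and the median log2 difference was -3.88. Among the 6 members with at least 49.5% of windows of their own the ratio ran from 2.02 to 16.4 and the median was -1.78. The near-identical copies together held 39.8% of the summed signal in sham and 18.5% in RYGB. Each of the 6 more distinct genes was lower in every RYGB mouse than in any sham mouse, but for Mup4 this was fixed by the listing. The part of read assignment in the larger differences of the copies was not tested.

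**Figure D3:**
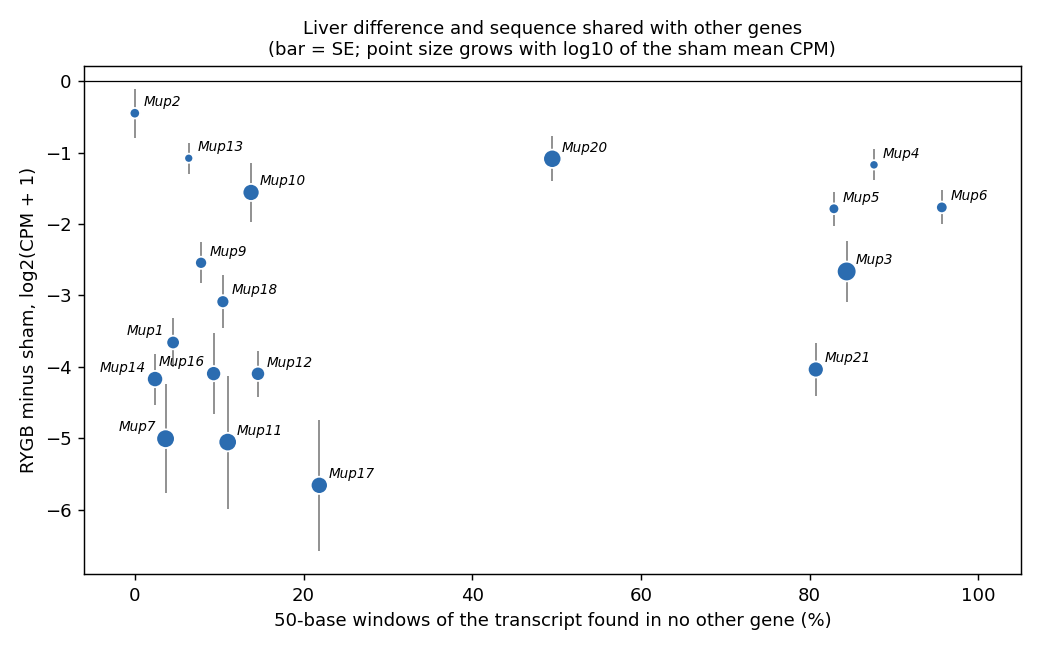
Difference of RYGB minus sham on the log2(CPM + 1) scale (bars, SE) for each Mup gene against the share of its transcript windows of 50 bases that occur in no other annotated gene; point size grows with the sham mean. Mup3, Mup4, Mup5, Mup6 and Mup21 on the right, above 80% of windows of their own, all lie below 0. For Mup4 this direction was fixed by the listing.

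Members varied together from mouse to mouse. After each group's mean was taken away, the correlation of log2(CPM + 1) between members over the 8 livers had a median of 0.73 over 153 pairs, from -0.09 for Mup4 with Mup21 to 0.96 for Mup10 with Mup11. The libraries have a common total and the genes shared reads, and RYGB mouse 2 was the lowest of its group for 17 of the 18. The relative spread was larger in RYGB for all 18 genes, with a median coefficient of variation of 61.8% against 29.4% in sham. This measure divides by the mean, which was lower in RYGB for all 18. In CPM the SD was larger in sham for most members, such as Mup3 (2043 against 650), and larger in RYGB for Mup2 and Mup10. In RYGB the highest value was in mouse 3 for 14 genes and in mouse 4 for 4, and in sham it was in mouse 1 for 10.

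The promoters of the family were examined for letters that members share. RefSeq gives a start site for 12 of the 18 (GRCm38.p6), and the window from 250 bases before to 50 bases after it was searched on both strands. The letters TATATAA form a core promoter element and were looked for after the sequences had been seen. They occurred in 11 of 12 Mup windows and in 3.24% of 32851 windows of all genes. Mup7 was the exception. Its window ends at letters that lie ahead of the element in Mup17, so it cannot show whether Mup7 has the element. The stretches below are shown because they hold the element, in capitals, with the 80 bases ahead of it, for members with large and with small differences.

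Mup17 (chr4:61595851-61595937, minus strand): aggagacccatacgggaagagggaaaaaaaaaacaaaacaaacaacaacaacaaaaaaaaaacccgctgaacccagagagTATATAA
Mup11 (chr4:60662391-60662477, minus strand): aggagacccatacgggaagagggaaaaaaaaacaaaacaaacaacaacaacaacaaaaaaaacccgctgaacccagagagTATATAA
Mup10 (chr4:60582179-60582265, minus strand): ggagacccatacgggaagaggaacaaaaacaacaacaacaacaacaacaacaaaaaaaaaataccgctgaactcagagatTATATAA
Mup3 (chr4:62087322-62087408, minus strand): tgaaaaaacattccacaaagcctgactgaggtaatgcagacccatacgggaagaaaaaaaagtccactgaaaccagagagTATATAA
Mup21 (chr4:62150843-62150929, minus strand): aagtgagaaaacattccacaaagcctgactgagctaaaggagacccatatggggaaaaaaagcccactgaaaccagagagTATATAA
Mup6 (chr4:60003372-60003458, plus strand): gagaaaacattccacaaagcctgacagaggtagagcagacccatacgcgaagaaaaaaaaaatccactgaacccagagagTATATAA

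Of the 40 bases just ahead of the element, 23 were A in Mup17 and Mup10, 22 in Mup11, 20 in Mup6, 19 in Mup3 and 18 in Mup21. Over all 11 windows with the element the count ran from 18 to 28, with 28 in Mup18 and 24 in Mup4. The windows of Mup11 and Mup17 were 99.6% identical over 276 aligned bases, and those of Mup10 and Mup17 were 94.9% identical over 294. The element begins 25 bases before the RefSeq start of Mup17, 30 before that of Mup10 and 2 before that of Mup11, so the annotated starts sit at different distances from it. Letters of the STAT5 type (TTCNNNGAA, the half-sites bound by the transcription factor downstream of growth hormone) were found in 0 of 12 windows and in 8.30% of all windows. Those of the C/EBP type (TTGCNNAA) were in 0 of 12 and 10.8%, and those of the glucocorticoid receptor palindrome in 0 of 12 and 0.475%. An absence concerns these letters in these windows alone.

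Genes with a known difference between the sexes in mouse liver were read beside the family, as Mup genes are a standard example of male-biased liver expression. Of 16 male-biased genes, 10 fell and 0 rose by the call above, with a median difference of -1.0; at an unadjusted p below 0.05 in limma 14 were lower and 0 higher. Background for the calls was 1.29% called lower and 5.79% called higher of all genes fitted. The share of all genes at an unadjusted p below 0.05 is not given, so the unadjusted counts here and below have no background. The counts of 10 and 14 both include Hsd3b5 and Ugt2b38. These reached 1 CPM in no RYGB library, so their direction was fixed by the listing. The steroid dehydrogenase Hsd3b5 was at 188, 263, 14.2 and 130 CPM in sham and 0.9, 0.1, 0.6 and 0.3 CPM in RYGB. Its difference was -6.11 ± 0.71 (SE), given with no p-value. Its sham level in mouse 3 was the lowest of that group, as was that of Mup7 and of the Mup sum. Cyp4a12a, a fatty acid hydroxylase, fell from 119 ± 43.6 to 10.5 ± 14.5 CPM (SD, n = 4 each; adjusted p = 0.00646, limma), and Cyp4a12b from 23.6 ± 11.3 to 1.78 ± 1.96 CPM (adjusted p = 0.00318, limma). These 2 are themselves close copies, and their split is uncertain.

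Elovl3, an elongase of very long fatty acids, fell by 2.76 on the log2 scale (SE 0.46, adjusted p = 0.00843, limma), Ugt2b38 by 1.72 and Cyp2d9 by 1.70. Cyp2d9 was among the tightest of these genes, at 708 to 872 CPM in sham and 200 to 273 CPM in RYGB. The other 4 that fell had differences from -1.46 to -0.74, and the 6 that were not called had differences from -0.86 to 0.21.

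Of 27 female-biased liver genes 13 were listed and tested, of which 6 rose and 0 fell (7 and 0 at an unadjusted p below 0.05 in limma). Cyp17a1, a steroid hydroxylase, rose from 13.9 ± 4.89 to 70.2 ± 30.1 CPM (SD, n = 4 each; adjusted p = 0.00396, limma). Cyp39a1, an oxysterol hydroxylase, rose from 20.8 ± 8.95 to 91.4 ± 13.5 CPM, and Abcd2, a peroxisomal fatty acid transporter, from 19.1 ± 11.8 to 73.3 ± 5.88 CPM. Fmo2, Atp6v0d2 and Trim24 rose by 1.34, 1.16 and 1.07 on the log2 scale. The other 14 were not listed in the liver table. Summed over the 13, these genes stood at 2113 CPM in sham mouse 3, the sham mouse with the lowest Mup sum, at 215.8 to 611.9 CPM in the other sham mice and at 798.5 to 2093 CPM in RYGB. Most of this sum was Cyp4a14, which was not called and is named after its values were seen, at 1729 CPM in sham mouse 3. Of the 6 genes that rose, Abcd2 (35.3 CPM) and Cyp39a1 (33.8 CPM) were highest of the sham group in that mouse. Cyp17a1 (9 CPM) and Atp6v0d2 (5.1 CPM) were lowest there, so the sum does not stand for the list.

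Of 12 components of growth hormone signalling, 1 rose and 1 fell. Ghr, the growth hormone receptor, fell from 710 ± 71.8 to 407 ± 82.4 CPM (SD, n = 4 each; difference -0.82 ± 0.16 SE, adjusted p = 0.0148, limma). Socs2, an inhibitor of that signal, was at 4.8, 4.8, 7.7 and 6 CPM in sham and at 24.9, 19.8, 7.1 and 34.7 CPM in RYGB. It rose by call (difference 1.56 ± 0.37 SE, adjusted p = 0.0296, limma), but RYGB mouse 3 lay within the sham range, and the call was lost without any 1 of 5 libraries (RYGB 2 or 4, sham 1, 2 or 4; adjusted p from 0.0513 to 0.0813). Igf1, the hormone that growth hormone induces in liver, was at 690 ± 52.9 and 510 ± 60.4 CPM (difference -0.44 ± 0.13 SE, adjusted p = 0.0549, limma). Cish, Igfals and Prlr, with differences of 0.40, -0.34 and 0.30, and the other 6 of the 12 genes were not called.

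None of 15 transcription factors and receptors of the hepatocyte was called, with a median difference of 0.02 and a range from -0.31 to 0.29; at an unadjusted p below 0.05 in limma it was 1, Hnf4a. The largest differences were those of Cebpa, Foxa3, Hnf4a, Esr1, Foxa2 and Cebpb, at -0.31, 0.29, 0.27, 0.26, -0.25 and 0.22. Zhx2, named after its values were seen because it encodes a repressor of fetal liver genes that also acts on some Mup genes, was at 16.6 ± 0.53 CPM in sham and 16.5 ± 1.75 CPM in RYGB (SD, n = 4 each). These are levels of RNA and say nothing of the activity of the proteins.

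The other lipocalins of the table were read as relatives of the family. Of 9 tested, 1 rose and 0 fell (1 and 1 at an unadjusted p below 0.05 in limma). Lcn2, an acute-phase lipocalin, was at 318, 141, 76.2 and 57.2 CPM in sham and at 298, 1946, 440 and 441 CPM in RYGB (difference 2.28 ± 0.61 SE, adjusted p = 0.0427, limma). Its value in RYGB mouse 2 was the highest by far, and without that mouse the difference was 1.70 and the adjusted p 0.061 (limma). The call was also lost without RYGB mouse 3 or 4 or sham mouse 2, 3 or 4, with adjusted p up to 0.097 (limma), under median-ratio scaling (0.0712) and with lane as a covariate (0.0532). Orm2, Orm3, C8g, Rbp4 and Ptgds were not called, with differences of 1.51, -0.68, -0.54, 0.21 and -0.18. The liver's other abundant secreted proteins had a median difference of -0.08 over 22 genes. Serpina1c, Serpina1d and Apoc3 fell by 0.97, 0.77 and 0.70 on the log2 scale, and complement C3 rose by 0.98 (adjusted p = 0.0139, 0.0219, 0.0497 and 0.0194, limma). These calls are fragile. Apoc3 was lost without any 1 of 7 libraries, that is, all but RYGB mouse 1 (adjusted p from 0.0751 to 0.139, limma), Serpina1d without sham mouse 1 or 4 or RYGB mouse 2 or 3 (0.0501 to 0.0737), C3 without sham mouse 2 or 4 or RYGB mouse 3 (0.0555 to 0.0622) and Serpina1c without RYGB mouse 3 (0.0514). Trf and Hp had differences of 0.78 and 0.99 and were not called.

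**Figure D4:**
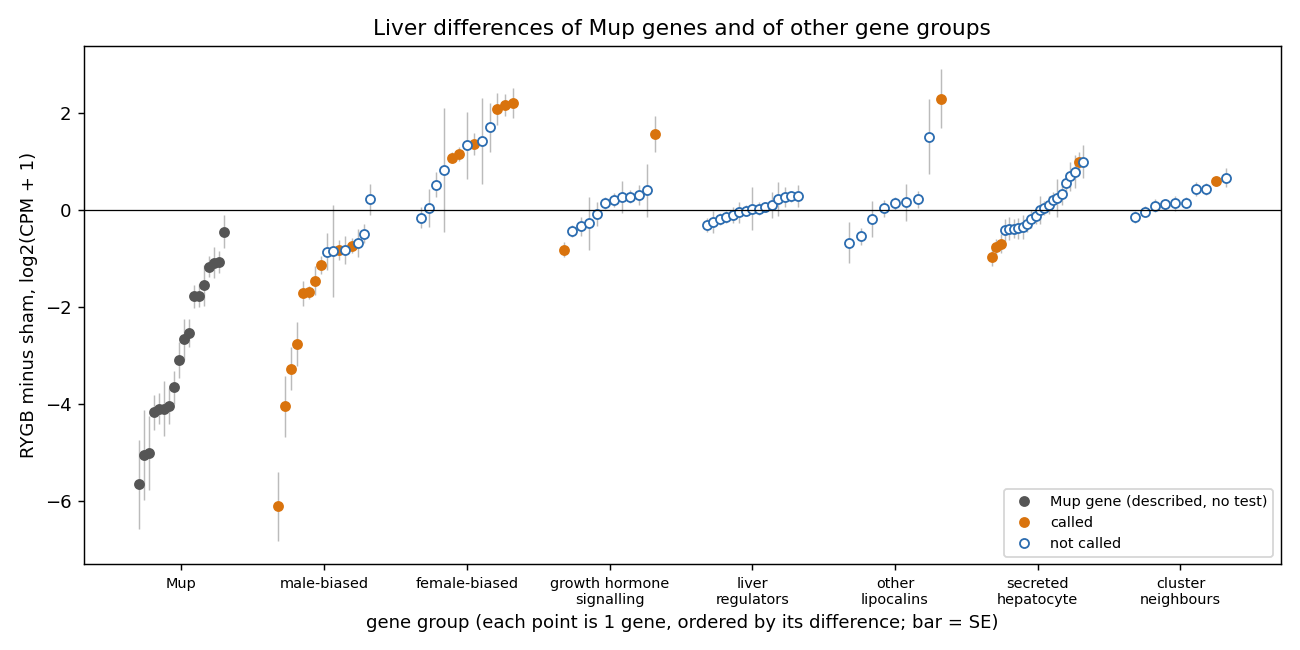
Difference of RYGB minus sham on the log2(CPM + 1) scale for the Mup genes and for 7 other gene groups (each point a gene, bars SE); filled orange points were called and open points were not. Points of the male-biased group reach as low as -6.11, for Hsd3b5, whose direction the listing fixed. Those of the liver regulators lie between -0.31 and 0.29, and the Mup genes are shown without a test.

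The genes on either side of the cluster were taken as a local reference. The nearest 5 listed genes to the left (Ptbp3, Hsdl2, E130308A19Rik, Inip and Snx30) and to the right (Slc31a2, Fkbp15, Slc31a1, Cdc26 and Prpf4) had differences from -0.15 to 0.66, with a median of 0.14. Ptbp3, an RNA-binding protein gene that begins 407440 bases from the cluster, rose by 0.60 (adjusted p = 0.0091, limma), and this call, for which the change must reach 1.5-fold, was lost when libraries were scaled by median ratios (0.45) and without sham mouse 1 (0.54) or RYGB mouse 4 (0.58). The other 9 were not called. Snx30 and Slc31a2, the closest on the left and on the right, at 52067 and 111699 bases, had differences of 0.43 and 0.42. No listed gene that is not a Mup gene lay inside the cluster.

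By a fixed rule, the 10 liver genes whose deviations from the group means followed the summed Mup signal most closely over the 8 libraries were C1rl, Tspan12, Tmie, Dlg3, Zcchc24, Lrrc3, Prkcz, G630090E17Rik, Rnf139 and Rhou, with correlations from 0.92 to 0.96 among 8051 genes. This order was not stable. Leaving out a single library kept from 0 to 7 of the 10, with 0 kept without RYGB mouse 2. When group means were not taken away, Tmie was the 1 gene in common, at 0.99. That version follows the difference between the groups itself, and it also placed Ghr, Elovl3 and Slco1a1 among its 10, which are named here after their values were seen.

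Markers of other cells were read in the same libraries. Of all liver genes fitted 5.79% were called higher, and in 13.4% all RYGB values lay above all sham values. Hepatocyte markers were high in all livers, with 0 of 8 called in either direction (2 higher and 0 lower at an unadjusted p below 0.05 in limma). Neutrophil markers were higher in RYGB, with 3 of 5 listed called (S100a9, Retnlg and Csf3r) and sums of 11.6 to 19 CPM in sham against 38.2, 573.1, 85.4 and 37.8 CPM in RYGB mice 1 to 4; Ly6g, Mmp8 and Camp were not listed. Without RYGB mouse 2 it was 4 of 5 called, and 0 without sham mouse 1, sham mouse 4 or RYGB mouse 3, and 1 without sham mouse 2 or 3. It was 1 of 5 under median-ratio scaling and 5 of 5 with the replicate number as a block. At an unadjusted p below 0.05 in limma 5 of 5 were higher and 0 lower. Retnlg, which is part of these counts, reached 1 CPM in no sham library, so its direction was fixed by the listing. RYGB mouse 2, the lowest for the Mup sum, was the highest for neutrophil markers. RYGB mouse 3, the next for neutrophil markers at 85.4 CPM, had the highest Mup sum of the RYGB mice, 4085 CPM. RYGB mouse 2 also had the lowest correlation with sham libraries, 0.937 to 0.946 against 0.957 to 0.981 in the other RYGB mice. Macrophage markers summed to 534 to 963.9 CPM in sham and 865.6 to 2796 CPM in RYGB, with Cd68 called of 9 listed, and not without sham mouse 4; 5 of 9 were higher and 0 lower at an unadjusted p below 0.05 in limma. Of stellate cell markers Col1a1 was called of 8 (5 higher and 0 lower at an unadjusted p below 0.05 in limma), of endothelial markers 0 of 7 and of bile duct markers 0 of 3 tested (4 and 0 higher at an unadjusted p below 0.05 in limma), and of enterocyte markers Apoa4, which hepatocytes also make, of 2 listed. Of adipocyte markers Cidec alone was listed, and 0 of 6 skeletal muscle markers. Without RYGB mouse 2 the ratio of sham to RYGB means of the summed Mup signal was 4.80. The part of infiltrating cells in the lower Mup signal was not tested.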

How the data were processed

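The submitters' processing notes name HTSeq and GRCm38; the aligner, the read assignment for repeated sequence and the filters are not given in the sources used here. The authors deposited 1 table per tissue holding CPM, rounded to 0.1, and depth is unknown, so no counting interval was computed; precision is limited by the 4 mice per group. Liver columns summed to 985098 to 990199 CPM. In 12 liver lines a value was lacking or of another kind, and these were left out; 1 repeated line was counted once. Columns of per-sample values left unused numbered 0. The labels do not say whether replicates were separate animals beyond their numbering, so p-values measure the spread between these libraries.

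The difference RYGB minus sham was fitted on log2(CPM + 1) with limma 3.58.1 (R 4.3.3; empirical Bayes with trend) for liver genes averaging 1 CPM or more, with Benjamini-Hochberg adjustment over all 11807. A fold change on this scale understates that of low genes. The script was tested on simulated data. Members and gene lists were chosen with earlier results of these data known, and the Mup genes get no p-value. A gene of the list of liver regulators is not reported here. Up to 6 genes were named per list, called genes first by size; 5 neighbours were taken per side, and 10 genes by correlation with the Mup sum (mean of at least 10 CPM). The planned fits of the other 5 tissues gave no result, as they list no Mup gene. Sequences came from GENCODE M21 and RefSeq and were aligned with Biopython 1.88 and mafft 7.526. Alternatives were another pseudocount (0.1), other minimums, median-ratio scaling, lane or replicate number as a term, and leaving out libraries.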

Additional observations from a re-analysis of the deposited data

Results flagged for a closer look

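Within groups of 4 mice, a library that stood apart from the others by Dixon's criterion on log2(CPM + 1) was found in 4 of 98 groups of named genes, and chance alone flags about 1 in 20. For Mup7, sham mouse 3 was at 935.9 CPM against 2956 CPM in the next sham mouse, a gap of 0.879 of the group's range. For Mup4, sham mouse 4 was at 3.5 CPM against 1.8 CPM (0.865 of the range). Among the secreted proteins, C3 in RYGB mouse 2 was at 14516 CPM against 12450 CPM (0.904 of the range), and Serpina1c in RYGB mouse 1 was at 1527 CPM against 942.1 CPM (0.949 of the range).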

How the results depend on the processing

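The 18 genes had 262 values under 15 alternatives, of which 261 were negative; the exception was Mup2 at 0.03 without RYGB mouse 2 and sham mouse 3, an alternative chosen after seeing the data. The number of Mup genes called lower was 16 of 18 and ranged from 13 to 16 when 1 library was left out, with 13 without sham mouse 4. It was 17 with lane as a covariate, and 11 of 12 tested at a mean of at least 10 CPM. The median Mup difference, -2.88, ranged from -3.23 to -2.60 without 1 library; it was -3.65 with a pseudocount of 0.1, and -4.07 at a mean of at least 10 CPM, where 12 genes remain. All liver calls numbered 836; they numbered 458 at a mean of at least 10 CPM and from 329 to 1204 without 1 library, with the lowest count without RYGB mouse 3. Calls in the context lists numbered 24, from 17 to 27 without 1 library. Median-ratio scaling moved the median of all genes from 0.13 to -0.01 and the share of higher calls from 81.8% to 65.1%. Without 1 library Cish, which was not called, ranged from -0.021 to 0.90, and Ptgds, not called, from -0.53 to 0.076, positive without RYGB mouse 2 or 3. Deviations of livers with equal replicate numbers correlated at 0.27, 0.17, -0.06 and 0.24, and whether these numbers pair the livers was left undecided. With the replicate block 1236 genes were called, against 836 without it, and 16 Mup genes. C3 was lost with that block (adjusted p = 0.0591, limma). C3, Lcn2 and Socs2 were also lost under median-ratio scaling, and Apoc3 under most alternatives.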
